A study of Mus musculus with 45 samples.

Results

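The 10 genes described here encode the enzymes that build the chondroitin sulfate chain, from the sugar linker on the core protein to the sulfated polymer. They were chosen by name and role as Xylt1, Xylt2, B4galt7, B3galt6, B3gat3, Csgalnact1, Chsy1, Chsy3, Chpf and Chst11, and all 10 were found among 36300 genes with counts. The RNA came from forelimb buds of CD1 mouse embryos, an outbred stock, taken on gestation day 13 and kept in organ culture. Cultures received the vehicle dimethyl sulfoxide, 10 µM bisphenol A or 50 µM bisphenol A, a monomer of plastics that binds estrogen receptors, and were stopped after 3, 24 or 48 h. Each of these 9 groups had 5 libraries, 45 in all, from limbs for which the labels name no allele or transgene. The forelimbs of an embryo went into 1 bottle together and the sexes were not kept apart, so no library stands for a single limb or sex. Whether libraries of 1 group differ in litter or culture day is not stated, and the p-values therefore speak of the spread among libraries, part of which may be technical.

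Chondroitin sulfate is a long chain of alternating glucuronic acid and N-acetylgalactosamine that hangs from core proteins such as aggrecan and holds water in cartilage. Its linker is shared with heparan sulfate: the xylosyltransferases Xylt1 and Xylt2 attach xylose to a serine of the core protein, B4galt7 and B3galt6 add a galactose each, and B3gat3 closes the linker with glucuronic acid. Csgalnact1 then adds the starting N-acetylgalactosamine, the step that directs the linker to chondroitin rather than heparan sulfate. Chsy1 and Chsy3 are chondroitin synthases that lengthen the chain, Chpf is the chondroitin polymerising factor that works with them, and Chst11 sulfates N-acetylgalactosamine at carbon 4. In the limb, these chains are most abundant in the cartilage models of the bones.

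The deposited files give each gene an Ensembl identifier and a position on mouse genome build mm10, and describe all 10 as protein-coding. Of the linker genes, Xylt1 (ENSMUSG00000030657) lies at chr7:117380979-117673580 on the plus strand, Xylt2 (ENSMUSG00000020868) at chr11:94663851-94677515 on the minus strand, and B4galt7 (ENSMUSG00000021504) at chr13:55599896-55610443 on the plus strand. B3galt6 (ENSMUSG00000050796) lies at chr4:155989466-155992649 on the minus strand and B3gat3 (ENSMUSG00000071649) at chr19:8920374-8927234 on the plus strand. Csgalnact1 (ENSMUSG00000036356) lies at chr8:68356781-68735146 on the minus strand, Chsy1 (ENSMUSG00000032640) at chr7:66109515-66173798 on the plus strand, Chpf (ENSMUSG00000032997) at chr1:75474569-75479307 on the minus strand and Chst11 (ENSMUSG00000034612) at chr10:82985498-83195900 on the plus strand. Chsy3 has the identifier ENSMUSG00000058152.

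The 250 bases before the RefSeq start (GRCm38.p6) were found for 7 of the 10 genes, all but Xylt1, Csgalnact1 and Chsy3. Those of 3 genes are printed because the genes behaved differently. Chst11 and Chpf both rose with culture time in vehicle. Chst11 was not called with bisphenol A, and Chpf was the gene that fell with 50 µM. Xylt2 was not called in any comparison. The windows are chr10:82985247-82985496 on the plus strand for Chst11, chr11:94677494-94677743 on the minus strand for Xylt2 and chr1:75479472-75479721 on the minus strand for Chpf, written 5′ to 3′ along the gene. Capitals mark matches to GGGCGG, the GC box bound by Sp1-type factors, on either strand.
Chst11: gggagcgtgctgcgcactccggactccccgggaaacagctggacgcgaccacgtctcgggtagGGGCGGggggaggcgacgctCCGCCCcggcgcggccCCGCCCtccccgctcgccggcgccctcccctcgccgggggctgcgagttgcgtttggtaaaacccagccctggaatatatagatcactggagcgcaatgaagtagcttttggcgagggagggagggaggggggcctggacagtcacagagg
Xylt2: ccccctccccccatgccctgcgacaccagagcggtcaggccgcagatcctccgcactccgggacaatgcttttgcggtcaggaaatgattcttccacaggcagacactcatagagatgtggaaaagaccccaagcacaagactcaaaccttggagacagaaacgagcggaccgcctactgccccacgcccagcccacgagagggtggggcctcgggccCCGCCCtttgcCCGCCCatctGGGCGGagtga
Chpf: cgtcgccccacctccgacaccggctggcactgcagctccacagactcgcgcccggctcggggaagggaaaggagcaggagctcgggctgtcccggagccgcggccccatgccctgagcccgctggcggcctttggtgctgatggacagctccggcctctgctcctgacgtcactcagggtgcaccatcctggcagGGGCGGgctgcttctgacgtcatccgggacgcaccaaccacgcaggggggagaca

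The GC box was found in 4 of the 7 windows: 3 times each in those of Chst11 and Xylt2, 2 times in that of Chsy1 and 1 time in that of Chpf. B4galt7, B3galt6 and B3gat3 had 0 matches, and 32.9% of the 27018 promoter windows of that length hold at least 1 GC box. G and C make up 70.0% of the Chst11 window, 63.2% of the Xylt2 window and 70.4% of the Chpf window, against a median of 52.0% over all windows. None of the 7 windows holds AACAAT, the core that Sox factors bind, which is found in 9.6% of all windows, or TGATGNAA, an Atf4 element, found in 3.5%, with both strands searched. CCAAT, found in 34.5% of all windows, occurs in those of B3gat3 and Chsy1. A match describes the letters and is not a binding site.

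The libraries held 17.54 to 27.12 M counts (M for mega), and all 10 genes passed the filter on low counts in every comparison. Levels are given as CPM, counts scaled to the size of each library with TMM factors, and levels are compared between genes only as the authors' FPKM, which divides by gene length. A gene is said to have risen or fallen, or to have been called, when the adjusted p of edgeR's quasi-likelihood test was below 0.05. All 16 chondrocyte markers, among them Col2a1, Acan and Sox9, were detected in every library, and their share of all counts in vehicle went from 0.562% ± 0.053 at 3 h to 1.37% ± 0.09 at 24 h and 2.01% ± 0.26 at 48 h (SD, n = 5). The 50 µM libraries of 3 h, for which a label field names 24 hours, had a share of 0.565% ± 0.046, like the other cultures titled 3 h. Epidermal markers varied most within a group, from 0.00871% to 0.16% of counts in vehicle at 24 h, and were used as a covariate in an alternative fit. In such bulk RNA, more cells of a type and more RNA per cell cannot be told apart.

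In vehicle at 3 h, the most abundant of these transcripts per length was Chsy1, with 29.2 ± 1.1 FPKM (SD, n = 5). Chpf followed with 21.6 ± 3.0 FPKM, B3gat3 with 20.4 ± 1.9, Xylt2 with 15.6 ± 1.6, Chst11 with 13.6 ± 0.6 and B4galt7 with 11.9 ± 1.9. The low end was held by Csgalnact1 with 6.53 ± 0.62 FPKM, B3galt6 with 5.81 ± 0.47, Chsy3 with 4.71 ± 0.87 and Xylt1 with 4.02 ± 0.58. Only 3 neighbours in this order had libraries that did not overlap: Chsy1 lay above Chpf, B3gat3 above Xylt2, and B4galt7 above Csgalnact1.

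By 48 h in vehicle the order had changed. Chsy1 stood at 42.7 ± 2.3 FPKM, Chpf at 39.8 ± 2.7, Chst11 at 37.0 ± 3.9 and B3gat3 at 33.4 ± 1.3, and the libraries of these neighbours overlapped. They were separated from Xylt2 with 15.1 ± 0.5 FPKM, B4galt7 with 14.5 ± 0.9, Xylt1 with 12.8 ± 1.0 and Csgalnact1 with 12.1 ± 0.8, which overlapped as neighbours in turn. Chsy3 with 8.16 ± 1.79 FPKM and B3galt6 with 7.20 ± 0.78 lay below those. Xylt1 thus went from the lowest FPKM of the 10 at 3 h to a level that overlapped B4galt7 at 48 h, and Chst11 passed Xylt2.

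The comparisons between times in vehicle ask how the pathway changed during culture without bisphenol A. Between 3 and 48 h, 9 of the 10 genes rose and none fell, with Xylt2 the gene not called, among 46.7% of all 16905 genes tested (23.9% higher, 22.9% lower). The median log2 fold change was 0.75 over the 10 genes and -0.01 over all genes tested. For 7 of the 10 the libraries of 3 and 48 h did not overlap, as for 33.9% of all genes. From 3 to 24 h, 6 of the 10 rose (Xylt1, B3gat3, Csgalnact1, Chsy1, Chpf and Chst11), when 30% of all genes were called and 16.3% were higher. From 24 to 48 h, 3 rose (Xylt1, Chpf and Chst11), when 8.45% of all genes were called and 5.44% were higher. The 3 comparisons share their vehicle libraries, so their values are set side by side and not counted as separate evidence.

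Among the linker genes, the xylosyltransferases parted. Xylt1 held 39.6, 38.9, 45.6, 30 and 41.8 CPM in the 5 vehicle libraries of 3 h, 68.9, 103.6, 76.0, 81.1 and 81.8 CPM in those of 24 h, and 116.8, 124.4, 121.1, 139.3 and 115.8 CPM in those of 48 h. The ranges of the 3 times did not overlap, and Xylt1 rose at each step. Its log2 fold change was 1.07 ± 0.12 (SE) from 3 to 24 h (adjusted p = 5.93e-06), 0.58 ± 0.09 from 24 to 48 h (adjusted p = 0.00118) and 1.66 ± 0.09 from 3 to 48 h, or 3.17-fold (adjusted p = 6.96e-10).

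Xylt2 held 58.5, 65.5, 67.9, 53.0 and 68.3 CPM at 3 h, 69.5, 63.3, 57.3, 63.7 and 60.4 CPM at 24 h, and 59.2, 59.8, 63.5, 59.5 and 59.3 CPM at 48 h. All 3 times overlapped, and the log2 fold change from 3 to 48 h was -0.05 with a 95% interval of -0.20 to 0.10 (adjusted p = 0.616). That interval lies below the change of every other one of the 10 genes over the same times.

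B3gat3, which completes the linker, went from 32.3, 35.03, 33.9, 27.7 and 35.7 CPM at 3 h to 63.0, 49.6, 55.8, 53.3 and 51.5 CPM at 24 h, and stood at 52.5, 55.8, 55.1, 50.8 and 54.0 CPM at 48 h. It rose by a log2 fold change of 0.74 ± 0.09 in the first interval (adjusted p = 1.62e-05), with no overlap, and was not called in the next, where the change was -0.03 with an interval of -0.18 to 0.12. The galactosyltransferases changed least among the called genes, by 0.28 ± 0.10 for B4galt7 and 0.31 ± 0.10 for B3galt6 from 3 to 48 h, with overlapping libraries.

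Those small changes rested on single libraries and settings. The adjusted p of B4galt7 from 3 to 48 h was 0.0255, and it was between 0.0519 and 0.0695 without replicate 1, 4 or 5 of 3 h or replicate 1 or 2 of 48 h, and 0.0531 with upper-quartile factors. The adjusted p of B3galt6 was 0.0144, but 0.0541 without replicate 4 of 48 h and 0.115 with the epidermal markers as a covariate. B4galt7 was not called from 3 to 24 h (adjusted p = 0.136), but was without replicate 2 of 3 h (0.0111).

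Csgalnact1, which starts the chain, held 36.2, 28.4, 34.8, 33.2 and 35.3 CPM at 3 h, 48.6, 70.1, 53.3, 61.3 and 54.8 CPM at 24 h, and 61.2, 64.1, 57.6, 67.1 and 57.8 CPM at 48 h. Every library of 24 and 48 h lay above those of 3 h, and the 24 and 48 h libraries overlapped. The log2 fold change was 0.78 ± 0.10 from 3 to 24 h (adjusted p = 2.91e-05) and 0.09 from 24 to 48 h, with an interval of -0.10 to 0.28.

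Among the polymerising genes, Chpf went on rising through both steps, by a log2 fold change of 0.46 ± 0.09 (adjusted p = 0.00103) and then 0.41 ± 0.06 (adjusted p = 0.000884). Its libraries held 78.2, 85.0, 88.0, 68.6 and 101.0 CPM at 3 h, 114.9, 107.8, 110.7, 126.4 and 117.5 CPM at 24 h, and 155.1, 161.6, 137.6, 149.7 and 164.4 CPM at 48 h, with no overlap between times. The synthase Chsy1 rose by 0.42 ± 0.07 in the first step (adjusted p = 0.000202), from 119.9 to 129.4 CPM at 3 h to 145.2 to 181.3 CPM at 24 h, and was not called in the next, at 165.5 to 192.1 CPM. The synthase Chsy3, with 10.6 to 17.5 CPM at 3 h and 17.8 to 30.4 CPM at 48 h, rose by 0.79 ± 0.15 over the whole time (adjusted p = 0.00048). For Chsy3 from 24 to 48 h the change was 0.55 ± 0.17 and missed the threshold (adjusted p = 0.0615), but it passed with DESeq2 (0.0156), in the fit of all libraries (0.0274), without the filter on low counts (0.0189), with the epidermal covariate (0.00939) and without replicate 1 of 48 h (0.0383).

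Chst11, the sulfotransferase, rose almost as far as Xylt1. It held 73.5, 79.2, 81.1, 72.1 and 74.6 CPM at 3 h, 136.4, 182.7, 166.1, 152.7 and 143.7 CPM at 24 h, and 203.4, 204.1, 175.3, 237.9 and 205.0 CPM at 48 h. The 24 and 48 h libraries overlapped through replicate 2 of 24 h and replicate 3 of 48 h. The log2 fold change was 1.04 ± 0.08 from 3 to 24 h (adjusted p = 2.1e-07), 0.39 ± 0.09 from 24 to 48 h (adjusted p = 0.0118) and 1.44 ± 0.07 from 3 to 48 h, or 2.71-fold (adjusted p = 3.23e-10).

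**Figure D1:**
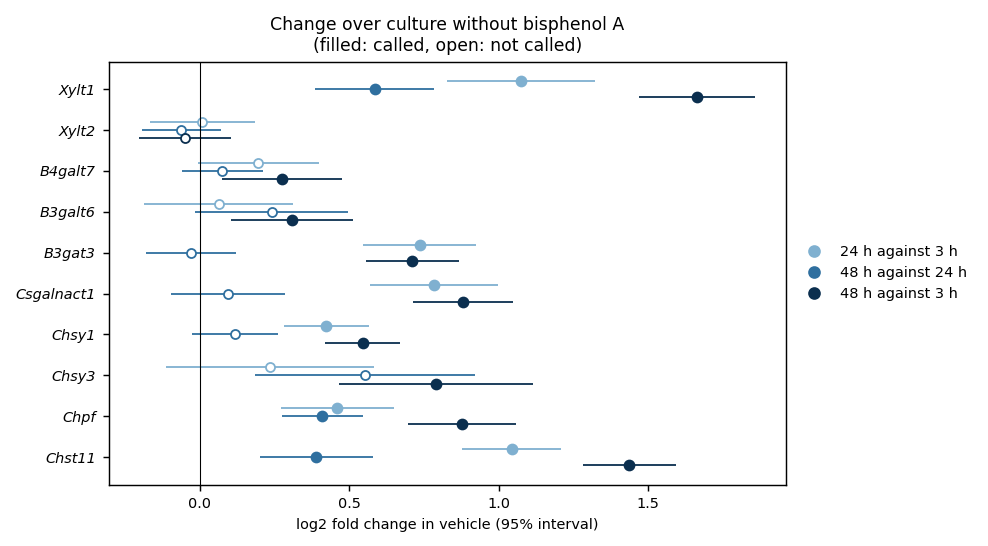
Log2 fold change of the 10 genes (rows) between times in vehicle, with 95% intervals and 5 libraries per time; colours give the pair of times, filled points were called and open points were not. Xylt1 and Chst11 lie furthest to the right, at 1.66 and 1.44 from 3 to 48 h, and all 3 intervals of Xylt2 cover 0.

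The comparisons with vehicle at the same time ask what bisphenol A did. At 50 µM and 48 h, Xylt1, Csgalnact1 and B4galt7 rose and Chpf fell, 4 of 10 genes, when 9.18% of 16732 genes were called (3.88% higher, 5.3% lower). The median log2 fold change was 0.08 over the 10 genes and -0.0049 over all genes. At 24 h, 1 of the 10 was called, Xylt1 (higher), against 3.47% of all genes (1.37% higher), with a median of 0.16 over the 10 genes and -0.0009 over all genes. At an unadjusted p below 0.05 there were 6 of the 10 at 24 h, when 2652 genes were in all, and 5 of the 10 at 48 h, when 3830 were. Those of 24 h were Xylt1, B4galt7, B3galt6 and Csgalnact1 with higher estimates and Xylt2 and Chpf with lower ones. At 3 h none was called, against 1.41% of all genes, and by DESeq2 none was either. Only Xylt1, at 0.0279, had an unadjusted p below 0.05 there, with rank 1497 by p among 16988 genes.

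**Figure D2:**
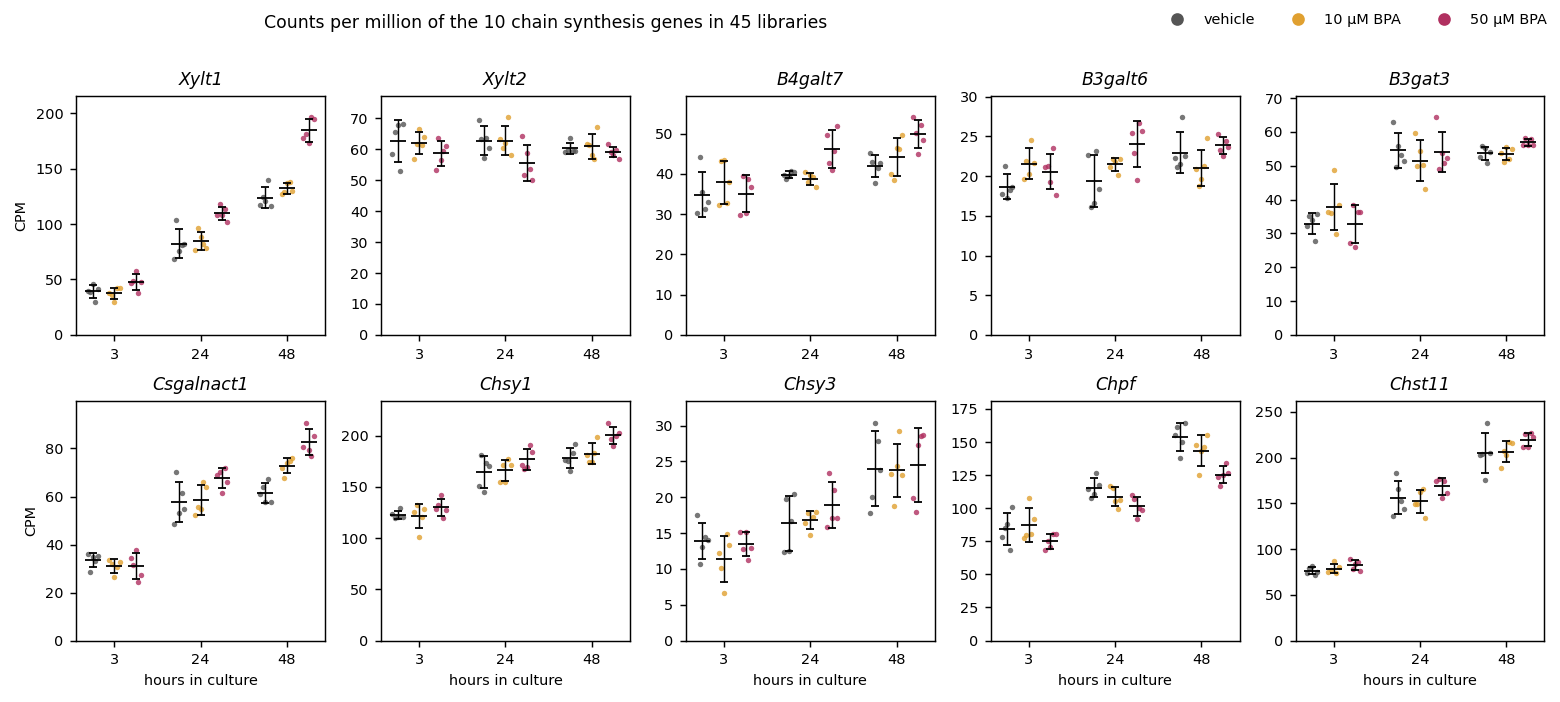
CPM of each gene (y axis, from 0) against hours in culture, with a point per library and bars for the mean ± SD of 5 libraries in vehicle (grey), 10 µM (yellow) and 50 µM (red) bisphenol A. At 48 h the 50 µM libraries of Xylt1 (173.5 to 196.2 CPM) lie above all others and those of Chpf (116.5 to 134.4 CPM) lie below those of vehicle.

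Xylt1 had the largest change among the 10 genes with 50 µM bisphenol A. At 48 h its treated libraries held 177.8, 181.0, 173.5, 196.2 and 194.9 CPM, all above the 115.8 to 139.3 CPM of vehicle. It rose by a log2 fold change of 0.57 ± 0.06, or 1.49-fold (95% interval 0.44 to 0.70, adjusted p = 3.5e-05), and had rank 37 by p among the 16732 genes. At 24 h the treated libraries held 107.7, 117.6, 108.0, 113.4 and 101.4 CPM against 68.9 to 103.6 CPM in vehicle, where replicate 2 of vehicle overlapped the lowest treated library.

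The rise of Xylt1 at 24 h was 0.41 ± 0.09 (adjusted p = 0.0221). The adjusted p was 0.0686 without replicate 2 and 0.0619 without replicate 4 of 50 µM, and 0.0655, 0.0559 and 0.0547 without replicates 3, 4 and 5 of vehicle. At 3 h the treated libraries held 47.0, 48.5, 57.7, 37.8 and 47.3 CPM against 30 to 45.6 CPM, with an estimate of 0.28 ± 0.11 (adjusted p = 0.317). The authors' deposited table gives Xylt1 a log2 fold change of 0.58 at 48 h with an adjusted p of 1.11e-16, and 0.42 at 24 h with an adjusted p of 0.000824.

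Xylt2, the other xylosyltransferase, was not called at any time with 50 µM. Its log2 fold change at 48 h was -0.04 with an interval of -0.14 to 0.07, at treated levels of 57.0 to 61.6 CPM against 59.2 to 63.5 CPM. At 24 h the estimate was -0.18 with an interval of -0.348 to -0.003 (adjusted p = 0.307). On the FPKM scale, Xylt1 lay below Xylt2 in the vehicle means of 48 h (12.8 against 15.1 FPKM) and above it in those of 50 µM (19.0 against 14.8 FPKM).

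B4galt7, which adds the inner galactose, was called at 48 h, by 0.24 ± 0.07 (adjusted p = 0.032). Treated libraries held 54.0, 50.2, 45.01, 52.0 and 48.3 CPM and vehicle libraries 45.2, 42.9, 37.6, 41.3 and 42.7 CPM, so that the lowest treated library fell just under the highest of vehicle. The call was lost in the fit of all 45 libraries (adjusted p = 0.096), without replicate 1, 2 or 4 of 50 µM (0.0737, 0.0531 and 0.0844) and without replicate 3 or 4 of vehicle (0.0719 and 0.0642). At 24 h all 5 treated libraries (40.9 to 52.0 CPM) lay above vehicle (38.7 to 40.7 CPM), a pattern that 5.2% of all genes showed in either direction, but the change of 0.21 ± 0.07 was not called (adjusted p = 0.156).

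The remaining linker genes were not called with 50 µM. B3galt6 had an estimate of 0.31 ± 0.12 at 24 h (adjusted p = 0.225) and of 0.04 at 48 h, with an interval of -0.14 to 0.23. B3gat3 had an estimate of 0.08 at 48 h with an interval of -0.03 to 0.18, although its treated libraries, at 56.0 to 58.2 CPM, lay above the 50.8 to 55.8 CPM of vehicle. At 48 h, 9.15% of all genes had groups that did not overlap.

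Csgalnact1, the enzyme that commits the linker to chondroitin, also rose at 48 h. Treated libraries held 80.5, 90.6, 79.5, 77.1 and 85.3 CPM, and every one of them lay above the vehicle libraries at 57.6 to 67.1 CPM. It rose by 0.41 ± 0.06, or 1.33-fold (interval 0.28 to 0.54, adjusted p = 0.000503). At 24 h the estimate was 0.23 ± 0.09 (adjusted p = 0.214), and at 3 h it was -0.12 with an interval of -0.37 to 0.12.

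Chpf was the only 1 of the 10 that fell. At 48 h the treated libraries held 123.6, 116.5, 125.2, 134.4 and 126.6 CPM, all under the vehicle libraries at 155.1, 161.6, 137.6, 149.7 and 164.4 CPM. It fell by 0.30 ± 0.06 on the log2 scale, to 0.81 of the vehicle level (interval -0.43 to -0.18, adjusted p = 0.00338). The estimates at 3 and 24 h were -0.17 ± 0.09 and -0.19 ± 0.07 and were not called (adjusted p = 0.431 and 0.158). On the FPKM scale, Chpf averaged 39.8 in vehicle and 32.3 in 50 µM at 48 h, and its place among the 10 went from the second to the fourth.

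The synthases Chsy1 and Chsy3, which work on the same chain as Chpf, had estimates above 0 where Chpf fell. Chsy1 held 212.5, 196.8, 190.5, 200 and 203.0 CPM with 50 µM at 48 h and 176.3, 175.4, 165.5, 183.4 and 192.1 CPM in vehicle, overlapping through replicate 5 of vehicle. Its change of 0.16 ± 0.05 missed the threshold (adjusted p = 0.0673), and it passed with the replicate number as a block (0.0179), with DESeq2 (0.0202) and without replicate 5 of vehicle (0.0352). In the authors' deposited table its adjusted p is 0.0286. Chsy3 had an estimate of 0.02 with an interval of -0.32 to 0.36, the widest of the 10, at 17.9 to 28.6 CPM.

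Chst11, which had risen 2.71-fold over culture in vehicle, was not called with 50 µM at any time. At 48 h it held 211.4 to 227.4 CPM with 50 µM and 175.3 to 237.9 CPM in vehicle, with a change of 0.09 and an interval of -0.05 to 0.23. Xylt1 and Chst11, the 2 genes that rose furthest over culture time, thus had different values with 50 µM at 48 h, and that difference between genes was not tested.

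**Figure D3:**
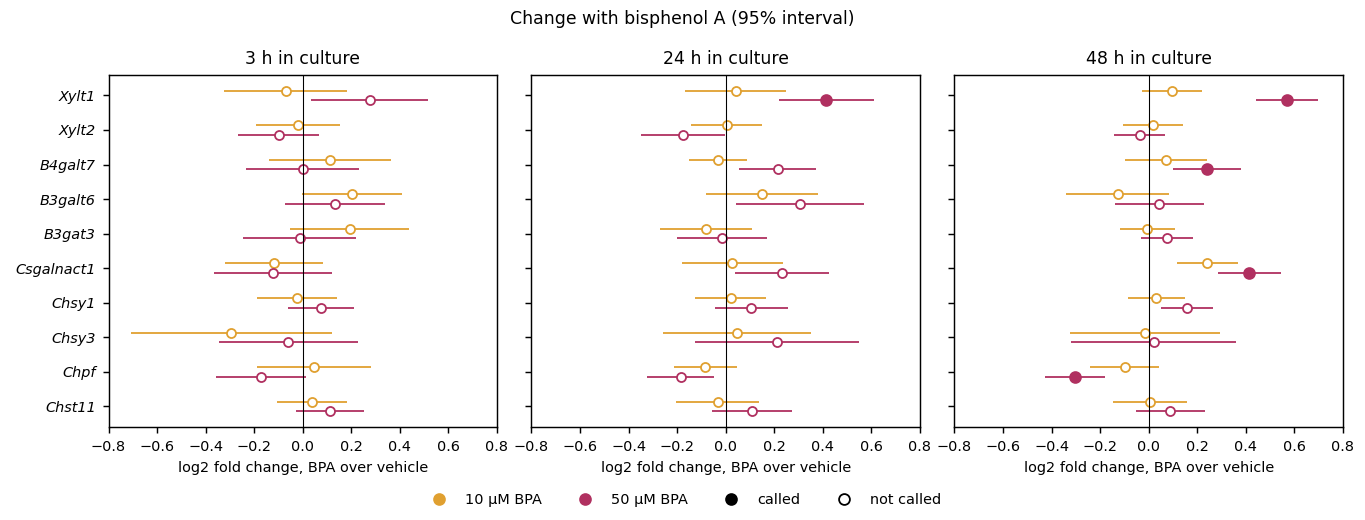
Log2 fold change of each gene with 10 µM (yellow) or 50 µM (red) bisphenol A over vehicle at 3, 24 and 48 h, with 95% intervals, 5 libraries per group; filled points were called. At 48 h Xylt1, Csgalnact1 and B4galt7 lie to the right with 50 µM and Chpf to the left, and no point of 10 µM is filled.

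At 10 µM none of the 10 genes was called at any time, by edgeR or by DESeq2. Over all genes, 0%, 0% and 0.00591% were called at 3, 24 and 48 h by edgeR, which left 974, 786 and 980 genes at an unadjusted p below 0.05, while DESeq2 called 17, 17 and 53 genes. Of the 10 genes, 0, 0 and 1 had such an unadjusted p, and the 1 was Csgalnact1 at 48 h. Its 10 µM libraries held 72.0, 67.7, 73.9, 74.6 and 75.9 CPM, all above the vehicle libraries and all below those of 50 µM, which start at 77.1 CPM. The change of 0.24 ± 0.06 had an unadjusted p of 0.000924 and rank 54 of 16925 but an adjusted p of 0.29, and 1.32% of all genes had groups that did not overlap. For Xylt1 at 48 h the estimate was 0.10 with an interval of -0.03 to 0.22, and for Chpf -0.10 with an interval of -0.24 to 0.04. The comparisons of 10 and 50 µM share the vehicle libraries of their time.

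Set directly against 10 µM in the fit of all 45 libraries, 50 µM gave a called difference for 1 of the 10 genes at 48 h, Xylt1, when 3.14% of 19247 genes were called. Xylt1 held 126.7, 129.1, 136.9, 138.1 and 129.5 CPM with 10 µM at 48 h, all below the 50 µM libraries, and the difference was 0.48 ± 0.09 (adjusted p = 0.00084). At 24 h, when 0.8% of all genes were called, Xylt1 also was, at 0.38 ± 0.10 (adjusted p = 0.0413). At 3 h, when 0.623% were called, none of the 10 was, and Xylt1 had 0.34 ± 0.10 (adjusted p = 0.11). At an unadjusted p below 0.05 there were 3 of the 10, Xylt1, Chpf and B3gat3. They had ranks 185, 634 and 1861 by p among the 19247 genes. The other 9 genes were not called between doses at any time. The difference of Chpf at 48 h was -0.20 with an interval of -0.36 to -0.04, and that of Csgalnact1 was 0.18 with an interval of 0.0013 to 0.363.

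The call of Xylt1 between doses at 24 h was lost without any 1 of replicates 1, 3, 4 or 5 of 10 µM (adjusted p = 0.122, 0.076, 0.0826 and 0.122) or 1 to 5 of 50 µM (0.0668, 0.12, 0.0609, 0.108 and 0.0575), and was 0.0554 without the filter on low counts. At 3 h it was gained with DESeq2 (0.0426) and without replicate 4 of 50 µM (0.0258).

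Whether the effect of 50 µM differed between times was tested as an interaction. Csgalnact1 was the only 1 of the 10 called: its change with 50 µM was larger at 48 than at 3 h by 0.54 ± 0.13 on the log2 scale (adjusted p = 0.0123), when 1.95% of all genes were called. For Xylt1 the same difference was 0.30 ± 0.14 (adjusted p = 0.36), and for Chpf -0.13 with an interval of -0.36 to 0.10. Between 3 and 24 h, when 0.634% of genes were called, and between 24 and 48 h, when 0% were (645 genes at an unadjusted p below 0.05 and 4 called by DESeq2), none of the 10 was, by edgeR or DESeq2. At an unadjusted p below 0.05 there were 1 and 0 of the 10. The 1 was Csgalnact1 between 3 and 24 h, with rank 723 by p among 19247 genes. A larger effect with time was thus tested and called for Csgalnact1, not for Xylt1, B4galt7 or Chpf.

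Summed over the 10 genes, vehicle cultures went from 518.9 CPM ± 26.5 at 3 h to 769 ± 44 at 24 h and 925.2 ± 43.3 at 48 h (SD, n = 5). With 50 µM the sums were 527.2 ± 12.7, 823.2 ± 31.1 and 1027 ± 26, and with 10 µM 527.2 ± 17.7, 761.3 ± 21.5 and 940.9 ± 40.4. At 48 h the 50 µM sums (990.1 to 1058 CPM) lay just above those of vehicle (865.2 to 984.4 CPM). A sum of CPM follows the long and abundant genes. In CPM at 48 h, Xylt1 alone added more to the difference than Chpf took away. On the FPKM scale the fall of Chpf (means of 39.8 to 32.3) was larger than the rise of Xylt1 (12.8 to 19.0).

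The rest of the pathway is given from lists chosen by role, with adjusted p from the same fits. In vehicle from 3 to 48 h, 46.7% of all genes were called (23.9% higher, 22.9% lower). Over culture in vehicle from 3 to 48 h, all 4 other genes of chain building rose: Csgalnact2, which also starts chains, by 0.34, the polymerising factor Chpf2 by 0.70, the xylose kinase Fam20b by 0.60 and the xylose phosphatase Pxylp1 by 0.45. Of 8 other sulfation and epimerisation genes tested, 5 rose, among them the 4-O-sulfotransferase Chst12 by 1.12 ± 0.10 and the uronyl 2-O-sulfotransferase Ust by 0.68 ± 0.09, and 1 fell, Chst15, by 0.50 ± 0.07. Of 12 genes that supply sugar nucleotides and sulfate, 7 rose and 1 fell. Among those that rose were Ugp2 at 0.79 ± 0.07 and the nucleotide sugar transporter Slc35d1 at 0.91 ± 0.08. The sulfate transporter Slc26a2 rose by 0.80 ± 0.07 and the sulfate donor synthase Papss2 by 0.73 ± 0.07. Of 11 genes of the heparan sulfate branch 4 rose and 2 fell, of 9 lysosomal genes that break the chain down 5 rose, and of 11 core proteins 7 rose and 2 fell, with aggrecan (Acan) at 2.26 ± 0.11. The median log2 fold change was 0.53 for the chain genes, 0.47 for sulfation, 0.35 for supply, 0.05 for the heparan branch, 0.36 for breakdown and 1.58 for core proteins, beside -0.01 over all genes. Acan and Col9a2 are also in the chondrocyte list.

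With 50 µM at 48 h, 9.18% of all genes were called (3.88% higher, 5.3% lower). None of the 4 other chain genes was called, and their estimates lay between 0.03 (Pxylp1) and 0.11 (Fam20b). Of 12 supply genes 3 rose, Slc26a2 by 0.38 ± 0.06 (adjusted p = 0.000856), Papss2 by 0.29 ± 0.06 (adjusted p = 0.00797) and the phosphatase gene Impad1 by 0.22 ± 0.06 (adjusted p = 0.0219), and 1 fell, Ugp2, which makes UDP-glucose, by 0.27 ± 0.06 (adjusted p = 0.00721). Of 9 sulfation genes Ust rose by 0.29 ± 0.07 and Chst7 fell by 0.79 ± 0.23 (adjusted p = 0.0159 and 0.0457). Chst7 was low, with means of 3.03 CPM in vehicle and 1.76 CPM with 50 µM. In the heparan branch 1 of 11 rose, Extl1, by 0.28 ± 0.07 (adjusted p = 0.0123). None of 11 core proteins and none of 9 lysosomal genes was called by edgeR, with 3 and 2 at an unadjusted p below 0.05 (1 of the 4 other chain genes), and Acan had an estimate of 0.29 ± 0.10 (adjusted p = 0.0853). Papss2 was also called in the test of 48 against 3 h, at 0.47 ± 0.09 (adjusted p = 0.00202).

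At 24 h with 50 µM, 3.47% of all genes were called (1.37% higher). Of 8 sulfation genes 1 rose, the 6-O-sulfotransferase Chst3, by 0.28 ± 0.06 (adjusted p = 0.0233). Extl1 rose by 0.27 ± 0.07 (adjusted p = 0.0354), and of 11 core proteins biglycan (Bgn) fell by 0.37 ± 0.07 (adjusted p = 0.0113). At 3 h, when 1.41% of all genes were called, none of the genes in these 6 lists was called by edgeR. Of each list, 1 or 2 genes had an unadjusted p below 0.05.

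Markers of other cell types moved with 50 µM too. Beside the counts of markers given here, 1.41%, 3.47% and 9.18% of all genes were called at 3, 24 and 48 h. At 48 h the 11 muscle markers took 0.361% to 0.546% of counts in vehicle and 0.162% to 0.259% with 50 µM, and the 6 tendon markers 0.067% to 0.084% and 0.0472% to 0.0563%. The 10 macrophage markers took 0.0238% to 0.0314% and 0.0128% to 0.0236%. Of these lists 9 of 11, 3 of 6 and 5 of 10 genes fell and none rose. The chondrocyte share overlapped, at 1.75% to 2.40% in vehicle and 2.11% to 2.70% with 50 µM, with 2 of 16 markers higher. At 24 h the chondrocyte share was 1.37% ± 0.09 in vehicle and 1.41% ± 0.09 with 50 µM (SD, n = 5), while muscle went from 0.372% ± 0.076 to 0.226% ± 0.022 with ranges that did not overlap. Of the other lists, the hypertrophic chondrocyte markers had 2 of 6 higher and 1 lower at 48 h, and 1 higher and 1 lower at 24 h. The osteoblast markers had 1 of 8 lower at 24 and at 48 h, with a share at 48 h of 0.634% to 0.884% in vehicle and 0.443% to 0.714% with 50 µM. The Schwann cell markers had 1 of 6 lower at 48 h and shares that did not overlap, 0.0068% to 0.00891% in vehicle and 0.00536% to 0.00665% with 50 µM. The limb mesenchyme markers had 1 of 8 higher at 3 and at 48 h. None of the epidermis, endothelium or erythroid markers was called by edgeR at any time with 50 µM, with 0 of 10, 0 of 10 and 1 of 9 at an unadjusted p below 0.05 at 48 h and 3 of the 10 endothelium markers at 24 h. None of the chondrocyte, muscle, tendon and macrophage lists had a marker at 0 in all libraries of a group, and the part of these shifts in the results for the 10 genes was not tested.

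How the 10 genes varied together is given as a description, over 45 libraries that share culture times and doses. Chst11 followed the mean log2 CPM of the chondrocyte markers most closely (Pearson r = 0.982, n = 45). Xylt1 came next with 0.957, then Csgalnact1 with 0.949 and Chsy1 with 0.924, while Xylt2 had -0.062. Within groups, after the mean of each group was subtracted, the order was another: Xylt1 had 0.513, Csgalnact1 0.464, Chst11 0.345 and Xylt2 0.233. The other 6 lay between -0.211 (B3galt6) and 0.15 (Chpf), with Chsy1 at 0.137. Correlation over the 45 libraries was not limited to chondrocyte markers. With the muscle markers r ran from 0.054 (Xylt2) to 0.846 (Chpf), with Chst11 at 0.763, and with the epidermal markers from -0.58 (Chsy3) to 0.088 (Xylt2). Within groups it ran from -0.076 (Xylt2) to 0.317 (Chpf) with muscle and from -0.509 (Chsy3) to 0.334 (B3gat3) with epidermis. Of 13396 genes with a mean count of at least 50, the nearest to Chst11 were Trpv4 (0.985), Matn1 (0.983) and Col2a1 (0.982), the latter 2 encoding cartilage matrix proteins. Nearest to Csgalnact1 was Papss2 (0.974), then Slc35f5 and Col9a1. Nearest to Xylt1 were Sdk2 (0.981), Nfic and App, to Chsy1 Fgfr1 (0.967), Boc and Acvr1, and to Chsy3 Bace1 (0.917). Chpf lay nearest to Mgat1 (0.954), Rhob and Apoe, and B3gat3 to Mfap4 (0.941). For B4galt7 the nearest were Slc50a1 (0.838), Grina and Atf4, for B3galt6 Kdelr1 (0.659), and for Xylt2 Idh3b (0.644).

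After the mean of each group was subtracted, the correlations, as read from their values, formed 2 sets. Csgalnact1, Xylt1, Chsy1 and Chsy3 varied together (r of 0.41 to 0.64 between pairs), and so did B3gat3, Chpf, B4galt7 and Xylt2 (0.38 to 0.62). Between the sets 15 of 16 pairs were negative, as for B3gat3 with Chsy3 (-0.578) and with Csgalnact1 (-0.566), and Chst11 and B3galt6 had no r above 0.35 with any of the others. The sets differ in base composition: G and C make up 46.3% to 53.2% of the longest transcript of the 4 genes named first, and 55.3% to 61.6% of the 4 named second. Chst11 (49.9%) and B3galt6 (51.3%), which joined neither set, lie within the first of these ranges. B3gat3 (61.6%) and Xylt2 (60.4%) are richer in G and C than 97.8% and 96.2% of the genes tested.

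A library-wide measure varied along with several of these genes. It is the mean deviation of genes in the top 20% of GC content minus that of the lowest 20%, and within groups it had an r of 0.838 with B3gat3, 0.685 with Chpf, 0.568 with Xylt2 and 0.451 with B4galt7. With Chsy1 it had -0.649, with Chsy3 -0.582, with Csgalnact1 -0.5 and with Xylt1 -0.395 (n = 45 each). B3galt6 had 0.126 and Chst11 0.049. At 48 h the measure itself, on log2 CPM without subtraction, ran from 0.322 to 0.541 in vehicle (mean 0.434). With 50 µM it ran from 0.339 to 0.402, inside the range of vehicle but with a lower mean of 0.377. At 24 h the means were 0.380 in vehicle and 0.355 with 50 µM, and at 3 h they were 0.264 and 0.382. At 3 h in vehicle it ran from -0.004 to 0.481 and overlapped that of 48 h. Its part in the differences between groups was not tested.

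**Figure D4:**
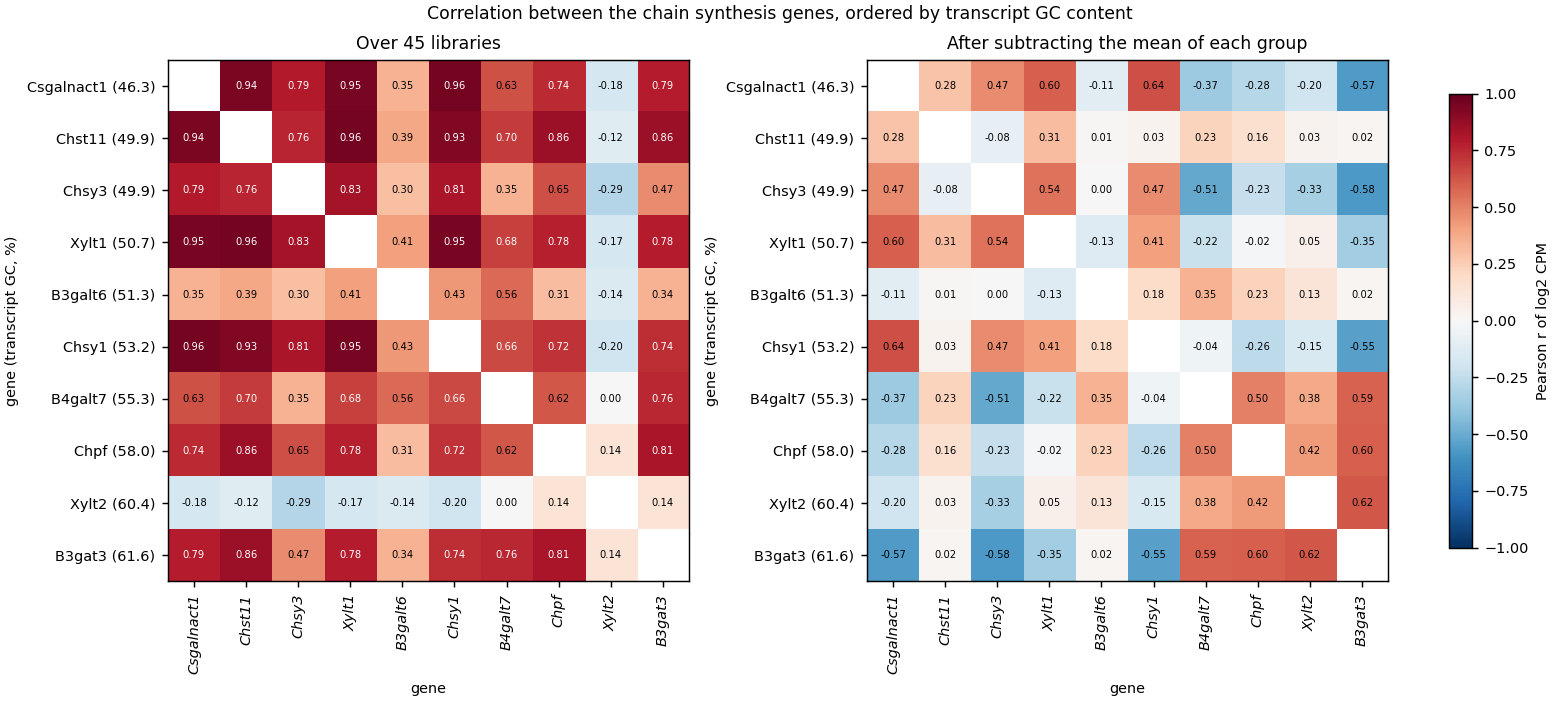
Pearson correlation of log2 CPM between pairs of the 10 genes, over 45 libraries (left) and after the mean of each group was subtracted (right), with genes ordered by the GC content of the longest transcript in percent (in brackets). On the left all pairs without Xylt2 are positive; on the right the 4 genes of highest GC are positive with each other and mostly negative with Csgalnact1, Chsy3, Xylt1 and Chsy1.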

How the data were processed

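RNA from 45 cultures was purified with poly-T beads, primed at random and amplified by PCR, per the labels' protocols, so counts are not independent molecules. No label states whether strand was kept, so overlapping and antisense genes may be mixed in the counts. Genome build mm10 and, without their roles, STAR 2.5, HTSeq 0.6.1, CASAVA 1.8 and DESeq2 2 are listed per the submitters' processing notes. The deposited counts are whole reads per gene, in 9 tables of 2 groups each (30679 to 31290 genes; 26202 in all 9), and the 1345730 values that several tables share were equal. The deposited FPKM values divide counts by gene length and depth, per the file headers. The authors' log2 fold changes and p-values came with each table. Value columns of no labelled sample numbered 0.

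Groups follow the titles. For 50 µM at 3 h a label field gives 24 hours, every sample's treatment text names 3 hours, and at 48 h with 10 µM replicates 1 and 2 carry each other's library code.

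Each comparison with vehicle or between times was fitted on its own 10 libraries with edgeR 4.0.16 in R 4.3.3 (quasi-likelihood test, TMM factors, minimum count 10, minimum total 15, Benjamini-Hochberg adjustment over all genes tested, threshold 0.05). Comparisons of doses and of effects between times used 1 fit of all 45 libraries. Standard errors were the size of the log2 fold change over the root of the F statistic. Log CPM used a prior count of 2. The scripts were tested on simulated data.

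The 10 genes and all lists were chosen with earlier results of these data known. All 10 genes are reported, the other lists by counts with up to 4 called genes of smallest p each, and per gene the 3 most correlated genes, or the nearest of them. Other estimates named to complete a list (the 4 other chain genes, Acan with 50 µM) and the description by GC content, from GENCODE mouse release 21 transcripts, were chosen after values were seen. Marker lists for hypertrophic chondrocytes, osteoblasts, limb mesenchyme, epidermis, endothelium, erythroid and Schwann cells were also counted.

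The replicate numbers were taken to pair libraries only where same-numbered libraries correlated with r above 0.1 in all 5 pairs. That held in 1 comparison, 50 µM against vehicle at 48 h (r of 0.104 to 0.211). At 24 h, all 5 also correlated best with their own number for 10 µM against vehicle (r of 0.066 to 0.357). The same held for 50 against 10 µM at 24 h (r of 0.032 to 0.195). The main fits used no pairing, that of 50 µM at 48 h included. The alternatives were upper-quartile or median-of-ratios factors, DESeq2 1.42.0, no filter on low counts, 1 CPM in 5 libraries, all 45 libraries or only the groups compared, the replicate block, an epidermal covariate and each library left out in turn.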

Additional observations from a re-analysis of the deposited data

Results flagged for a closer look

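In vehicle at 48 h, Xylt2 in replicate 3 stood apart at 63.53 CPM, with the nearest other library at 59.8 CPM, a gap of 0.871 of the range of the group. In the same group B3galt6 in replicate 4 stood apart at 27.4 CPM, with the nearest at 22.5 CPM, a gap of 0.791 of the range. The critical value for 5 libraries is 0.71, and 90 groups were examined, of which chance marks about 1 in 20. The effect of 50 µM bisphenol A on Csgalnact1 was larger at 48 than at 3 h by 0.54 on the log2 scale, by the interaction test given above.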

How the results depend on the processing

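No value of the 10 genes reversed a called direction under any alternative. Over the 10 genes, 15 comparisons and their alternatives, 2968 values kept their side of the threshold, 29 lost a call and 13 gained 1. The rise of Xylt1, the rise of Csgalnact1 and the fall of Chpf with 50 µM at 48 h held under every alternative and without any single library. With the replicate block, 2 of the 10 genes were called at 24 h with 50 µM against 1 without it (B3galt6 added, adjusted p = 0.0444). The numbers were not taken to pair libraries there, although 4 of 5 correlated best with their own number (r of 0.03 to 0.219). In the paired comparison of 50 µM at 48 h the block gave 5 calls against 4, adding Chsy1, and elsewhere it added Chsy3 from 24 to 48 h in vehicle (adjusted p = 0.0356). Numbers of the library codes gave 0 calls for 10 µM at 48 h, as did the titles. Between doses, DESeq2 gave 1 call at 3 h against 0, and without the filter on low counts 0 were called at 24 h against 1. With each library left out in turn, the number called with 50 µM ran from 0 to 1 at 24 h and from 3 to 5 at 48 h, and between doses from 0 to 1 at 3 h and from 0 to 1 at 24 h. Over culture in vehicle it ran from 6 to 7 (3 to 24 h), 3 to 4 (24 to 48 h) and 8 to 9 (3 to 48 h). Precision was lowest for Chsy3, which had the widest interval of the 10 in every comparison.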
